A study of Mus musculus with 40 samples.

Results

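Taurine, cysteine and methionine metabolism was followed through 10 genes chosen by name: the methionine cycle genes Mat1a, Mat2a, Gnmt, Ahcy and Bhmt, the transsulfuration genes Cbs and Cth, the taurine synthesis genes Cdo1 and Csad, and the taurine transporter Slc6a6. Probe sets to which the platform annotation gives such a symbol alone were taken, and those with several symbols were left out. This gave 13 of the 45037 probe sets on the array and 9 of the 10 genes, out of 18193 gene symbols in all. Mat2a had no probe set under its symbol alone and was not measured here. A mean signal of at least 50 in a group, the level used in the study's methods, was reached by 9 genes with 11 probe sets in liver and by 8 genes with 10 probe sets in kidney. A further pair of Slc6a6 probe sets stayed under 50 on all 40 arrays, and Mat1a stayed under 50 on all 20 kidney arrays.

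The study looked for early changes in transcripts and promoter DNA methylation under phenobarbital (PB), in a target tissue (liver) and a non-target tissue (kidney). Only its expression arrays are read here. PB is a barbiturate that activates the nuclear receptor CAR in hepatocytes and promotes liver tumors in mice. All animals were male B6C3F1/Crl mice, a hybrid bred from C57BL/6 and C3H/He, and the labels name no engineered allele. They arrived 29 to 32 days old, acclimatised for 5 days, and were then split at random into 10 controls and 10 mice with PB at 0.05% (w/v) in the drinking water, which were sacrificed on day 28. Liver and kidney came from the same 20 animals, with 1 array per tissue and animal, no pooling, and whole tissue with all its cell types as the source. In such bulk RNA, fewer cells of a type and less RNA per cell cannot be told apart.

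Methionine is activated to S-adenosylmethionine by the methionine adenosyltransferases, gives its methyl group away, for instance to glycine through Gnmt, and ends as homocysteine, which Bhmt can turn back into methionine with a methyl group of betaine. The transsulfuration enzymes Cbs and Cth instead pass the sulfur of homocysteine on to cysteine, the building block of glutathione. Cdo1 oxidises cysteine to cysteine sulfinate, Csad removes its carboxyl group on the way to taurine, and the liver joins taurine to bile acids before they are secreted.

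The arrays were alike in scale, with a median MAS5 signal of 30.0 to 37.2 per array, and the treatment was visible in Cyp2b10, the classical CAR target, which rose from 25.4 ± 9.84 to 11480 ± 1070 (mean ± SD, n = 10) in liver. The summed signal of 8 hepatocyte markers was 119156 to 169553 in livers against 6867 to 13549 in kidneys. In kidneys Ttr alone measured 9704 ± 1920 in controls and 8515 ± 677 after PB, and 5 of the 8 markers had means under 50. Alb ranged from 61.2 to 922.8 in control kidneys and from 79.8 to 1029.6 in PB kidneys, a spread that the sum hides. The sum of 7 proximal tubule markers was 44508 to 65806 in kidneys and 220.6 to 681.2 in 19 livers, and control liver 5 stood apart at 1988, of which Kap made up 1230.2. In PB livers 5 of 8 stellate cell markers tested were lower (Des, Lrat, Pdgfrb, Dcn and Reln, all 9 measured markers summing to 2752 to 3587 against 3273 to 4042 in controls), 1 of 9 macrophage markers (C1qa), 1 of 8 hepatocyte markers (Ahsg) and 1 of 3 lymphocyte and neutrophil markers (S100a9) were lower. Of 6 endothelial markers Stab2 was lower, with every PB liver below every control. Of 7 pericentral markers Rhbg was higher, and 4 of 9 clock genes were higher and 1 lower. In PB kidneys both fat cell markers tested were higher, Adipoq at 334.6 ± 305 against 59.15 ± 40.7 (SD, n = 10) and Ucp1 at 197.6 ± 194 against 22.42 ± 22.8. Ucp1 passed the filter of 50 through the PB kidneys alone, and Cidec and Lep had means under 50 in both kidney groups. All 4 measured fat cell markers summed to 80.7 to 1658 in PB kidneys against 11.5 to 176 in control kidneys. In kidney 5 of 11 clock genes were also higher and 1 lower, and Lum and Podxl, each 1 of 8 markers of its list, were higher. In liver Des and S100a9 passed the filter through controls alone, with means of 60.81 and 69.28 against 34 and 32.54 after PB. Per3 passed it in liver through PB livers alone, and Npas2, the lower clock gene in kidney, through control kidneys alone. A filter passed through 1 group alone favours a difference in that direction. Of all genes tested, 6.45% were higher and 7.72% lower in PB livers, and 2.17% were higher and 1.57% lower in PB kidneys. No marker list was tested against these shares. The part of these marker differences in the results for the members and the pathway lists was not tested.

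Csad, which encodes cysteine sulfinic acid decarboxylase, had the largest change among the members. Its only probe set ranged from 912.5 to 1958 (median 1396) in control livers and from 285.8 to 1080.3 (median 504.4) in PB livers. Signals are MAS5 values on a linear scale. Of the 10 PB livers, 9 lay below every control, and the groups overlapped through PB animal 17 alone, whose 1080.3 was above 1 control. The difference was -1.45 on the log2 scale (SE 0.19), so that the signal fell by 63.4%, and it passed the test (limma, adjusted p = 9.48e-06, n = 10 per group). Without animal 17 it was -1.58, and over the omission of each liver array in turn it lay between -1.58 and -1.36. Animal 17 also had the highest proximal tubule sum of the PB livers, at 580.4 against at least 44508 in kidneys. Among the 11 member probe sets above the filter in liver, Csad also had the widest spread in PB livers, with a coefficient of variation of 44.1% against 20.4% in control livers.

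Kidney Csad did not follow. It ranged from 1275 to 1475 (median 1369) in control kidneys and from 1254 to 1575 (median 1394) in PB kidneys, 2 groups that overlapped widely. The log2 difference was 0.04 with a 95% interval of -0.05 to 0.13 (limma, adjusted p = 0.711). The PB effect in liver minus that in kidney was -1.49 (SE 0.20), and this difference between tissues passed its own test (limma over all 40 arrays, adjusted p = 2.08e-06). Control liver and control kidney had close signals for Csad, 1372 ± 280 and 1365 ± 77.4 (SD), with a log2 difference of -0.02 (95% interval -0.31 to 0.27). In PB mice every liver lay below every kidney, as for 29.2% of genes, with a log2 difference of -1.50 (SE 0.14, adjusted p = 1.59e-12).

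**Figure D1:**
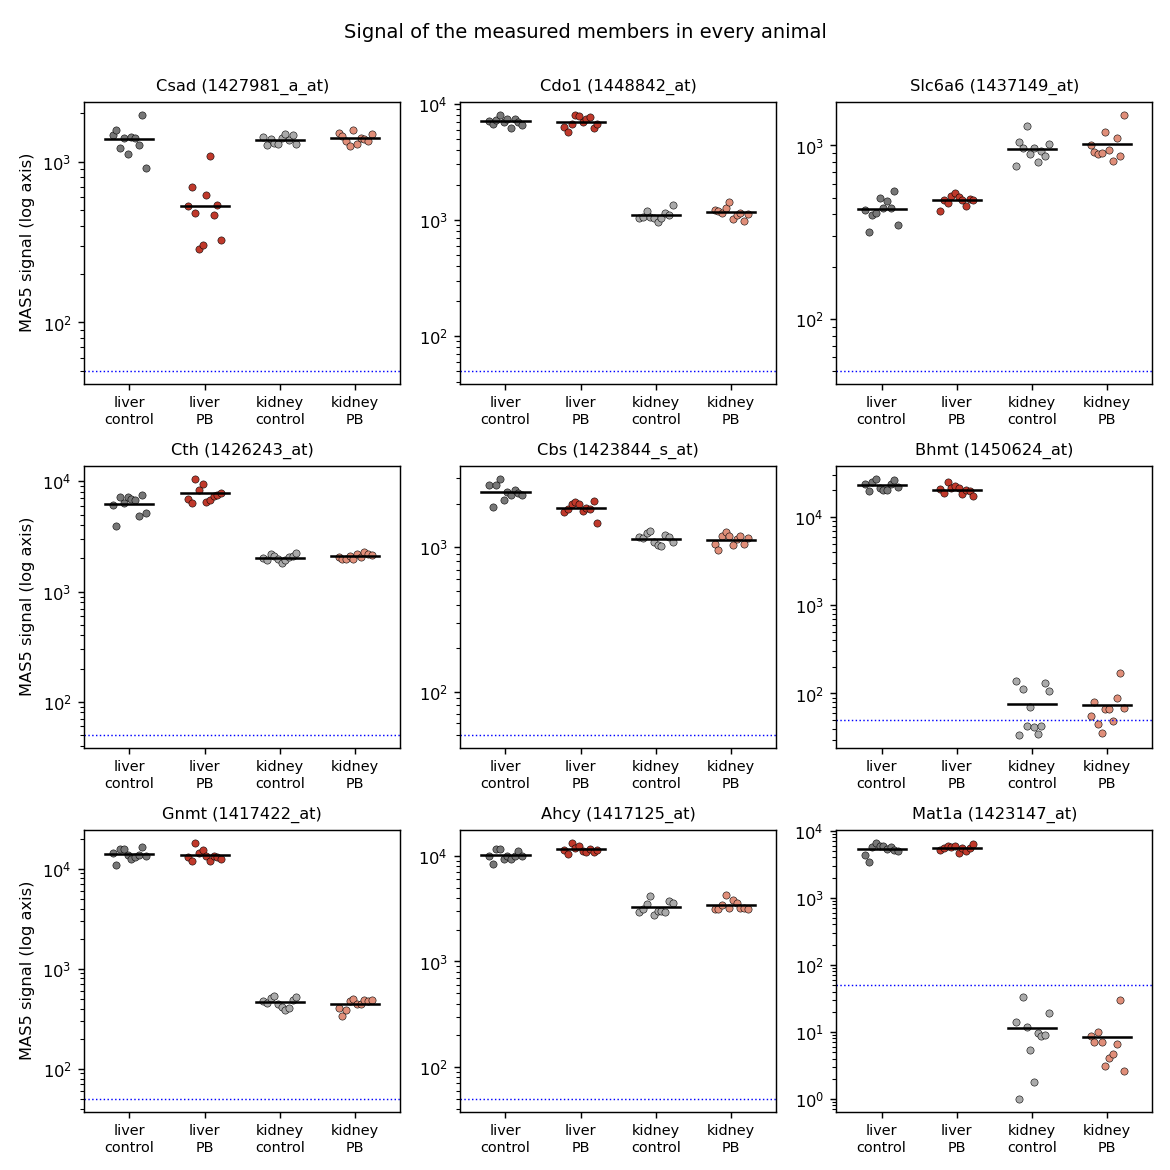
MAS5 signal (log axis) of the 9 measured members in every animal, with control and PB animals of liver and kidney side by side, 10 points per group, the black line as the group mean and the dotted line at a signal of 50. Csad falls from a mean of 1372 to 533.2 in liver and stays at 1365 and 1402 in kidney, and Mat1a lies under the dotted line in all kidneys.

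Cdo1, cysteine dioxygenase, which makes the substrate of Csad, ranged from 6131 to 8037 (median 7092) in control livers and from 5758 to 8059 (median 6849) in PB livers. The groups overlapped over almost their whole range. Its log2 difference was -0.03 with a 95% interval of -0.15 to 0.09 (limma, adjusted p = 0.792). In kidney the signal was 1100 ± 108 in controls and 1162 ± 122 after PB (SD, n = 10), a log2 difference of 0.08 (95% interval -0.05 to 0.20).

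Slc6a6 encodes the taurine transporter of the cell membrane. The probe set with its highest signal ranged from 315.1 to 542.6 (median 430.9) in control livers and from 421.4 to 530.9 (median 485) in PB livers, so that the PB group lay inside the control range. The log2 difference of 0.19 (SE 0.08) did not pass the test (limma, adjusted p = 0.131, 95% interval 0.02 to 0.35). The second probe set above the filter had a log2 difference of 0.10 (SE 0.14) in liver. In kidney, where the transporter had the higher signal, the first probe set measured 956.8 ± 150 in controls and 1016 ± 206 after PB, again without a call (log2 difference 0.08, 95% interval -0.12 to 0.28).

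Cbs, cystathionine beta-synthase, the first enzyme of transsulfuration, was the other member that fell in liver. Its brighter probe set ranged from 1909 to 2992 (median 2401) in controls and from 1464 to 2084 (median 1857) after PB, and 6 of 10 PB livers lay below every control. The signal fell by 22.9%, a log2 difference of -0.38 (SE 0.07, limma adjusted p = 0.00107). The dimmer probe set went from 867.8 ± 95.1 to 652.3 ± 107 (SD, n = 10), a log2 difference of -0.42 (SE 0.09, adjusted p = 0.00201), with 8 of 10 PB livers below every control. Both probe sets of Cbs thus fell by a like amount, each with overlapping groups.

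In kidney the brighter Cbs probe set measured 1149 ± 94.1 in controls and 1124 ± 93.9 after PB, a log2 difference of -0.03 (95% interval -0.14 to 0.08). The PB effect on Cbs in liver minus that in kidney was -0.34 (SE 0.09, limma adjusted p = 0.0155) by the brighter probe set, which is marked _s_at. By the dimmer probe set it was -0.30 (SE 0.11) and did not pass (adjusted p = 0.0915).

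Cth, cystathionine gamma-lyase, which releases cysteine from cystathionine, moved the other way without a call. It ranged from 3970 to 7553 (median 6575) in control livers and from 6358 to 10578 (median 7489) in PB livers, and 5 PB livers lay above every control. The log2 difference of 0.33 (SE 0.11) had an adjusted p of 0.051 (limma, 95% interval 0.10 to 0.56), on the threshold. It was under 0.05 when 8 of the 20 livers were each left out, and over it when any of the other 12 was. Cth was also called higher with a filter at 100 (adjusted p = 0.0414), with floors of 20 and 50, under quantile normalization, with the mean of probe sets, and with all 40 arrays in 1 fit (adjusted p = 0.00547). Kidney Cth was 2033 ± 130 in controls and 2098 ± 106 after PB (log2 difference 0.05, 95% interval -0.04 to 0.13).

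Among the methionine cycle members, Ahcy, which splits S-adenosylhomocysteine into homocysteine and adenosine, was the only one with a call in liver. It ranged from 8400 to 11687 (median 9974) in controls and from 10312 to 13341 (median 11298) after PB, with 4 PB livers above every control. The log2 difference was 0.19 (SE 0.06, limma adjusted p = 0.034), or 13.8% more signal. The call sat near the threshold. Leaving out any 1 of 10 of the 20 livers raised the adjusted p to between 0.0501 and 0.0596, and centring the arrays on their medians raised it to 0.147. In kidney Ahcy was 3281 ± 443 in controls and 3415 ± 387 after PB, and the PB effects in the 2 tissues did not differ by the test (difference 0.13, SE 0.09, adjusted p = 0.501).

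Bhmt, betaine-homocysteine methyltransferase, was the brightest member, close to the top of the scale: the highest signal of any probe set on a liver array was 25795 to 33060, and Bhmt ranged from 19677 to 27200 (median 22889) in control livers and from 17352 to 24659 (median 20419) in PB livers. The groups overlapped, with 3 PB livers below every control. The log2 difference of -0.17 (SE 0.07) was not called (limma, adjusted p = 0.103, 95% interval -0.31 to -0.03). Under quantile normalization, which narrowed its standard error to 0.02, Bhmt was called at -0.09 (adjusted p = 0.0164). Kidney Bhmt lay around the filter, from 33.9 to 137.3 in controls and from 35.7 to 172.1 after PB, with 5 and 3 animals under 50.

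Gnmt, glycine N-methyltransferase, ranged from 10919 to 16681 (median 13835) in control livers and from 11940 to 18244 (median 13175) in PB livers, overlapping ranges with a log2 difference of -0.03 (limma, adjusted p = 0.827, 95% interval -0.19 to 0.13). Mat1a, the methionine adenosyltransferase of adult liver, ranged from 3466 to 6646 (median 5466) in controls and from 4722 to 6356 (median 5476) after PB. Its groups overlapped completely on the PB side, with a log2 difference of 0.07 (limma, adjusted p = 0.654, 95% interval -0.11 to 0.25).

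Counted over the members, 1 of 9 was higher and 2 were lower in PB livers, where 14.2% of the 9976 genes tested were called (6.45% higher and 7.72% lower), and the median member had a log2 difference of -0.03 against -0.02 over all genes. No member had PB and control livers that did not overlap, which 1.34% of genes did upward and 0.431% downward. At an unadjusted p under 0.05, 6 of the 9 members and 29.6% of all genes passed. In kidney 0 of 8 members were called by limma, none had an unadjusted p under 0.05 (19.6% of all genes did), and Student's t-test with the same adjustment also called 0, where 3.74% of 10083 genes were called by limma (2.17% higher and 1.57% lower). When the PB effects of the 2 tissues were tested against each other, 2 of 9 members were called, Csad and Cbs, where 7.65% of 11205 genes were.

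**Figure D2:**
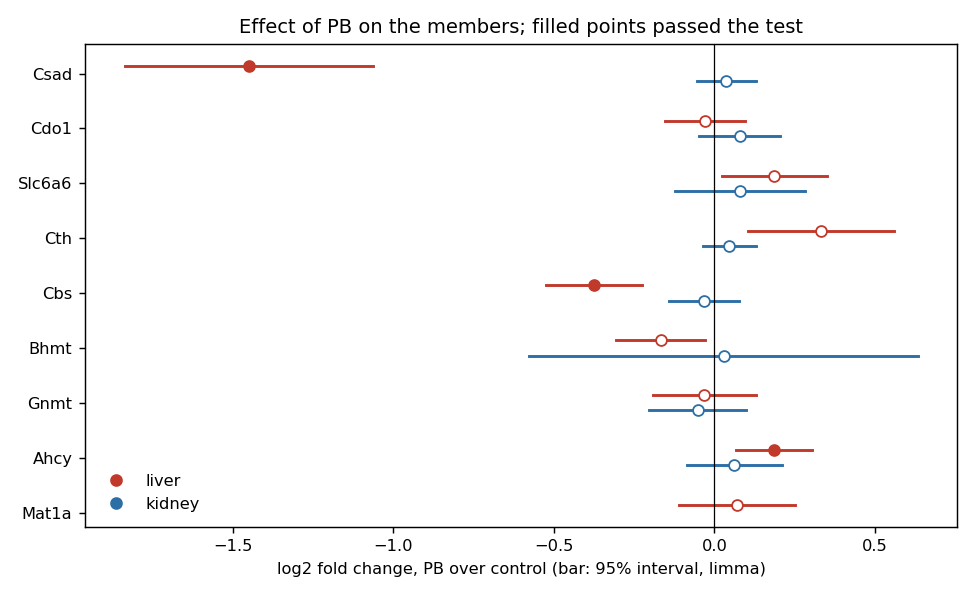
Log2 fold change of PB over control (x axis) for each member in liver (red) and kidney (blue), with 95% intervals from limma and filled points for calls at an adjusted p under 0.05. Csad at -1.45, Cbs at -0.38 and Ahcy at 0.19 are filled in liver and no member is in kidney, where Mat1a was not tested.

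The promoter windows of the members that fell in liver, Csad (with a pair of start sites) and Cbs, are shown with that of Bhmt for comparison, as RefSeq gives them for GRCm38.p6, all on the minus strand, from 250 bases before the start site to 50 after it. Capitals mark AGGTCA, the hexamer that many nuclear receptors including CAR bind as a part of longer sites, searched on both strands.
Csad at chr15:102205003-102205302: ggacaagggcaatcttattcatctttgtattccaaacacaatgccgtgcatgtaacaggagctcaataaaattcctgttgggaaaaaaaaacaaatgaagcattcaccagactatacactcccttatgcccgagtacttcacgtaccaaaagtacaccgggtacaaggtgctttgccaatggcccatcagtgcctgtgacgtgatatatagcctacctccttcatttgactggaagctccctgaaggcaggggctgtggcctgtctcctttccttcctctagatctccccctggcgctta
Csad at chr15:102188994-102189293: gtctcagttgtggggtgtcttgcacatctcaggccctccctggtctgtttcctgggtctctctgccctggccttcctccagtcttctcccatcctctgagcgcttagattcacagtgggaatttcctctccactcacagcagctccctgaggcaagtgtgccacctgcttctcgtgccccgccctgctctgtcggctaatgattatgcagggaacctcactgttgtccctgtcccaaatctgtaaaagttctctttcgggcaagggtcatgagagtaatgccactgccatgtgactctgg
Cbs at chr17:31637156-31637455: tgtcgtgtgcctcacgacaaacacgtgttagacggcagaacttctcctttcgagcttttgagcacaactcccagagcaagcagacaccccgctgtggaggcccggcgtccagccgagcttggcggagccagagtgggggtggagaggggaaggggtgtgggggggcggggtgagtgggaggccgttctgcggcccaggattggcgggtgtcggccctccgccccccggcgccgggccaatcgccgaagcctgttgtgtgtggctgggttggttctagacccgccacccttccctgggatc
Bhmt at chr13:93637709-93638008: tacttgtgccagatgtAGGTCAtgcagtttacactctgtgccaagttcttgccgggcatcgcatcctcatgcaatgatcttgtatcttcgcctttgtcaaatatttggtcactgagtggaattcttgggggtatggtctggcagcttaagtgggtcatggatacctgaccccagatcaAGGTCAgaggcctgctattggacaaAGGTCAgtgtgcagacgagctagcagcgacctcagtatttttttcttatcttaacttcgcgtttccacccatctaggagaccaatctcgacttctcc
AGGTCA occurs in 16.3% of 32851 windows of this length, and in neither Csad window nor the Cbs window, which says only that these letters are not in these windows. The Bhmt window holds it 3 times, 234, 72 and 47 bases before the start site, and the windows of Ahcy and Gnmt hold it once each. Cbs had 22 CpG dinucleotides and 66.7% GC, and the Csad windows had 6 and 5 CpG with 47.3% and 55.3% GC. The windows of Cdo1, Slc6a6, Cth and Mat1a are not shown here.

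Between tissues, most of the members had a higher signal in liver than in kidney. In control mice 7 of 9 members were higher in liver and 1 was lower, where 80.7% of genes were called (36.7% higher and 44% lower), with a median log2 difference of 1.63 against -0.08 over all genes. Bhmt was at 22990 ± 2600 (SD, n = 10) in liver and between 33.9 and 137.3 in kidney, where 5 of 10 control animals lay under 50, so that no fold is given. Mat1a was at least 106-fold higher in control livers and at least 110-fold higher in PB livers, taking the filter level of 50 for the kidneys, where its mean was 11.4 and 8.4. Gnmt was 30.3-fold higher in liver, Cdo1 6.44-fold, Ahcy 3.1-fold, Cth 3.01-fold and Cbs 2.11-fold, all with groups that did not overlap and adjusted p-values of 7.63e-19 or less (limma). Slc6a6 was the 1 member called lower in liver, with a log2 difference of -1.16 (SE 0.09). Csad was not called either way (log2 difference -0.02, limma adjusted p = 0.915). Groups without overlap were found in 19.9% of genes upward and in 27.3% downward.

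In PB mice 7 members were higher in liver and 2 were lower, Slc6a6 and Csad, where 81.8% of genes were called (35.9% higher and 45.9% lower) and 20.9% had every liver above every kidney. The Cbs difference between the tissues shrank from 1.07 to 0.73 on the log2 scale, which is the same contrast as its difference in PB effect above. Liver and kidney of an animal carry the same donor number. With the animal as a fixed block the PB effect in liver minus kidney was still -1.49 for Csad (SE 0.19, limma adjusted p = 2.65e-05) and -0.34 for Cbs (SE 0.07, adjusted p = 0.0053).

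Within the groups Csad did not track the other members detectably. Over the 10 animals of a group, none of its 16 relations with the other members in liver had an adjusted p under 0.05, by Pearson's r or Spearman's rho, and none did so among the 14 in kidney (0 and 2 with an unadjusted p of r under 0.05, permutation tests with 1e+05 resamples). In control livers r lay between -0.22 and 0.34. In PB livers all 8 were negative, from -0.62 to -0.01. The relations nearest to a call were those in PB livers with Ahcy (rho -0.79, permutation p = 0.00826, adjusted p = 0.0865) and Cth (rho -0.78, p = 0.0108, adjusted p = 0.0865). For a given member the liver and the kidney of an animal had no relation with an adjusted p under 0.05 among 16 (1 unadjusted).

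The bright members moved together from liver to liver. All 72 relations among members in control and PB livers were examined after the values had been seen, and 9 had a permutation p of r under 0.05 after adjustment, 4 in controls and 5 in PB livers, all of them positive. Bhmt and Gnmt had r = 0.93 and rho = 0.95 in control livers (permutation p = 0.00012 and 0.00022, adjusted p = 0.00288 and 0.0158) and r = 0.92 and rho = 0.92 in PB livers (permutation p = 6e-05 and 0.00064, adjusted p = 0.00288 and 0.023). Without the 2 animals farthest from the median, r was 0.95 and 0.94. By rho these 2 were the only relations of the 72 with an adjusted p under 0.05.

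Bhmt, Gnmt, Ahcy and Cth were set against the 100 brightest other probe sets of their array. Bhmt had r = 0.94 and rho = 0.99 with their mean log2 signal in control livers (permutation p = 3e-05 and 1e-05) and r = 0.99 and rho = 1.00 in PB livers (permutation p = 1e-05 for each, the smallest the resamples can give), with adjusted p-values of 0.00012 or less over 8 relations and r of 0.90 and 0.98 without the 2 farthest animals. Gnmt had r = 0.95 and 0.93 (permutation p = 5e-05 and 6e-05, rho 0.93 and 0.92) and Ahcy r = 0.92 and 0.84 (p = 0.00011 and 0.00272, rho 0.88 and 0.79). Cth followed less closely, with r = 0.55 in control livers (permutation p = 0.101, adjusted p = 0.101, rho 0.37), the only 1 of the 8 relations without a call by r, and r = 0.73 in PB livers (p = 0.0168, adjusted p = 0.0192, rho 0.55). Set relative to that mean, 0 of the 72 relations had an adjusted p under 0.05 (8 unadjusted). The mean itself was 13.99 ± 0.12 (SD) in control and 14.00 ± 0.12 in PB livers, so it did not separate the treatments. With it as a covariate, an alternative chosen after the values had been seen, Bhmt was called lower in PB livers at -0.18 (SE 0.02, limma adjusted p = 9.62e-06) and Cth higher at 0.32 (SE 0.09, adjusted p = 0.0174).

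**Figure D3:**
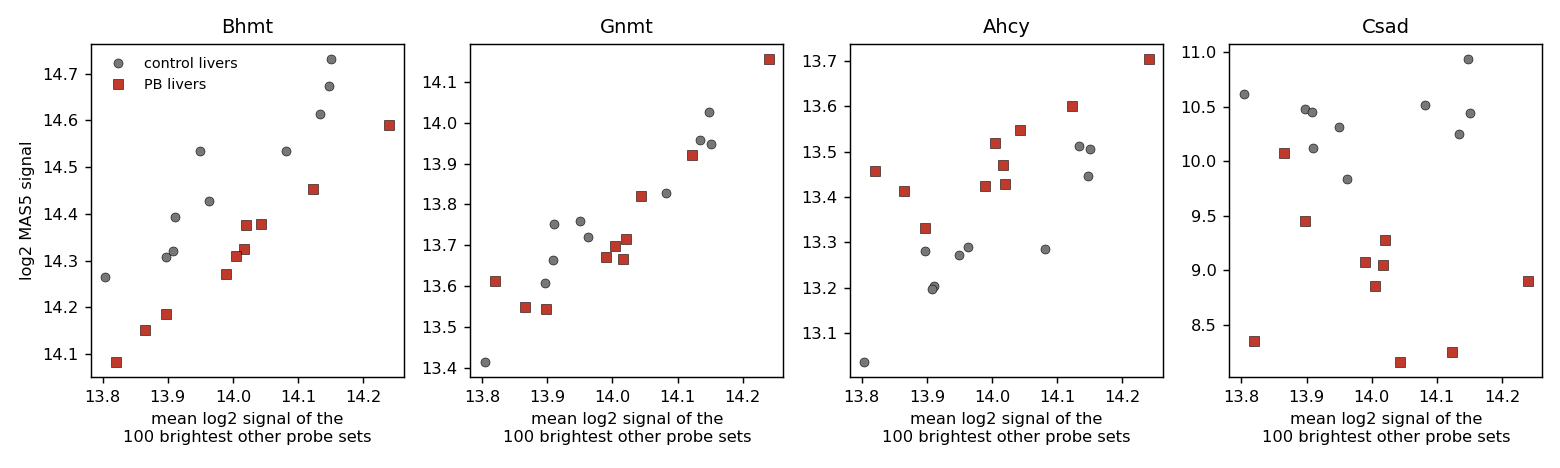
Log2 MAS5 signal of Bhmt, Gnmt, Ahcy and Csad in each liver (y axis) against the mean log2 signal of the 100 brightest other probe sets of the same array (x axis), with control livers as grey circles and PB livers as red squares, 10 each. Bhmt, Gnmt and Ahcy rise along the x axis, with r of 0.84 to 0.99 within the groups, and Csad is drawn for comparison.

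Of the genes tested in the fit over both tissues, those whose profile over the 40 arrays lay nearest to a called member were found by the root mean square difference of centred log2 signals (floor 20), over 11205 genes. For Csad they were Dnase2a, a lysosomal nuclease (0.38), Tgoln1, a protein of the trans-Golgi network (0.45), and Cby1 (0.46). Dnase2a measured 1663 ± 587 in control and 791.2 ± 316 in PB livers, against 1343 ± 252 and 1346 ± 308 in kidney. PB animal 17, the highest in Csad, was also the highest of its group in Dnase2a, at 1569 with the next at 928.8. Since these genes were picked for their likeness to Csad over the same arrays, animal 17 included, such shared values follow from the choice. The nearest profiles to Cbs were Dpp9 (0.13), Copb1 (0.15) and Wbp1l (0.16), and those to Ahcy were Tmem243 (0.14), Tspan31 (0.15) and Phyh (0.16). In liver Dnase2a, Tgoln1, Dpp9, Copb1 and Tmem243 were called for PB in the direction of their member. Wbp1l, Tspan31 and Phyh were not (limma adjusted p = 0.0607, 0.948 and 0.901). Cby1 had means under 50 in both liver groups and was not tested there.

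The surrounding pathways were read from 6 lists with 67 genes, of which 62 had a probe set under their symbol alone. In liver 8 were higher and 8 lower of 55 tested, with a median log2 difference of 0.01 against -0.02 over all genes. Of all genes 6.45% were higher and 7.72% lower there, 14.2% in either direction. In kidney 0 were higher and 3 lower of 54 tested, with a median of -0.0016 against 0.0086. Of all genes 2.17% were higher and 1.57% lower there, 3.74% in either direction. The counts of the single lists below are to be read beside these same shares. Bhmt2, Apip, Baat, Slc27a5, Ado and Gclc are named below for their roles and were chosen after their values had been seen.

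In the list of methionine cycle and methyl use, 2 were higher and 1 was lower of 12 tested in liver (median -0.01). Inmt, an indolethylamine methyltransferase that uses S-adenosylmethionine, rose from 4531 ± 1350 to 7395 ± 2170 (log2 difference 0.71, SE 0.18, limma adjusted p = 0.00917), with 6 of 10 PB livers above every control. Shmt2, which feeds the mitochondrial folate pool, rose by 0.27 (SE 0.06), and Ahcyl2, a relative of Ahcy, fell by 0.54 (SE 0.14, adjusted p = 0.011). Bhmt2, a close relative of Bhmt, was at 5143 ± 357 and 4768 ± 309, a log2 difference of -0.11 (SE 0.05, adjusted p = 0.139). In kidney none of 11 was called, and Inmt, the brightest there, was 6353 ± 718 and 5829 ± 736.

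The choline and betaine list had 3 lower and 1 higher of 8 in liver (median -0.04). Chka, choline kinase alpha, fell from 532.8 ± 158 to 294.9 ± 72.4 (log2 difference -0.84, SE 0.17, limma adjusted p = 0.00144). Dmgdh, which oxidises the dimethylglycine that Bhmt leaves behind, fell from 2976 ± 233 to 2187 ± 257 (log2 difference -0.45, SE 0.06, adjusted p = 4.10e-05), with 8 of 10 PB livers below every control. Slc44a1, a choline transporter, fell by 0.41 (SE 0.07), with 9 of 10 below. Slc6a12, a betaine transporter, rose by 0.41 (SE 0.09), and is named beyond the rule for named genes, after its value was seen, since it completes the count. None of 7 was called in kidney, where Aldh7a1, which also oxidises betaine aldehyde, was brightest at 2434 ± 152 and 2358 ± 171.

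Of the polyamine and methionine salvage list, 2 were higher and 1 was lower of 8 in liver (median 0.12). Enoph1 rose by 0.31 (SE 0.08) and Mri1 by 0.30 (SE 0.09), both enzymes of the salvage of methionine from methylthioadenosine. Apip, which acts between them, had a log2 difference of 0.15 (limma adjusted p = 0.174). Sat1, which acetylates spermidine and spermine, fell by 0.43 (SE 0.12, limma adjusted p = 0.0242), with control animal 2 far above its group at 1570. In kidney none of 8 was called, and Odc1, ornithine decarboxylase, was brightest at 8610 ± 1470 and 7235 ± 865.

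In the taurine list, 1 was higher of 7 tested in liver (median 0.01). The called gene was Fmo1. No tested transporter or conjugating enzyme was called, nor was Ado. Gadl1, Acnat1 and Slc6a20b of this list were not tested in liver. Fmo1, a flavin monooxygenase that can oxidise hypotaurine to taurine and also handles many drugs, rose from 1393 ± 192 to 2177 ± 146 (log2 difference 0.65, SE 0.07, limma adjusted p = 5.02e-07), with every PB liver above every control. Baat, which joins bile acids to taurine or glycine, was at 1841 ± 147 and 1856 ± 131 (log2 difference 0.01, SE 0.05), and Slc27a5, which activates bile acids for that step, was at 8216 ± 825 and 8357 ± 656. Ado, cysteamine dioxygenase, the other way to hypotaurine, had a log2 difference of -0.18 (SE 0.08, adjusted p = 0.151). None of 6 was called in kidney, where Fmo1 was brightest at 4145 ± 454 and 4463 ± 372.

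Cysteine catabolism and sulfide oxidation had 1 higher of 10 in liver (median 0.07) and 2 lower of 9 in kidney (median 0.03). Ethe1, the sulfur dioxygenase of mitochondria, went opposite ways: it rose from 1274 ± 199 to 1612 ± 283 in liver (log2 difference 0.34, SE 0.10, limma adjusted p = 0.0258) and fell from 990.1 ± 140 to 827.9 ± 61.5 in kidney (-0.25, SE 0.06, adjusted p = 0.0334), and the difference between tissues was 0.59 (SE 0.12, adjusted p = 0.00153). Kyat1, a cysteine conjugate beta-lyase, fell in kidney from 479.1 ± 56.7 to 382.4 ± 46.4 (-0.33, SE 0.07, adjusted p = 0.0172).

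The list of cysteine supply and glutathione synthesis had 1 higher and 3 lower of 10 in liver (median -0.19) and 1 lower of 13 in kidney (median -0.08). Gclm, the modifier subunit of the enzyme that starts glutathione synthesis, rose from 2172 ± 251 to 2731 ± 169 (log2 difference 0.34, SE 0.06, limma adjusted p = 5.17e-04), whereas the catalytic subunit Gclc had a log2 difference of 0.00 (SE 0.11). Chac1, which cleaves glutathione, fell by 0.91 (SE 0.22, adjusted p = 0.00703), and Ggct, which acts on gamma-glutamyl amino acids, fell by 0.73 (SE 0.09, adjusted p = 3.43e-06), the latter from 212.1 ± 19.5 to 128.9 ± 20.1 with every PB liver below every control. Cndp2, a cytosolic dipeptidase, fell by 0.34 and was likewise named to complete the count. Ggct also fell in kidney, from 1266 ± 241 to 923.6 ± 139 (-0.45, SE 0.10, adjusted p = 0.0139), and its effects in the 2 tissues did not differ by the test (difference -0.28, SE 0.13, adjusted p = 0.235). These falls of Ethe1, Kyat1 and Ggct compare groups of kidneys, as do the fat cell and clock gene differences given above. Whether they occurred in the same animals was not tested.

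**Figure D4:**
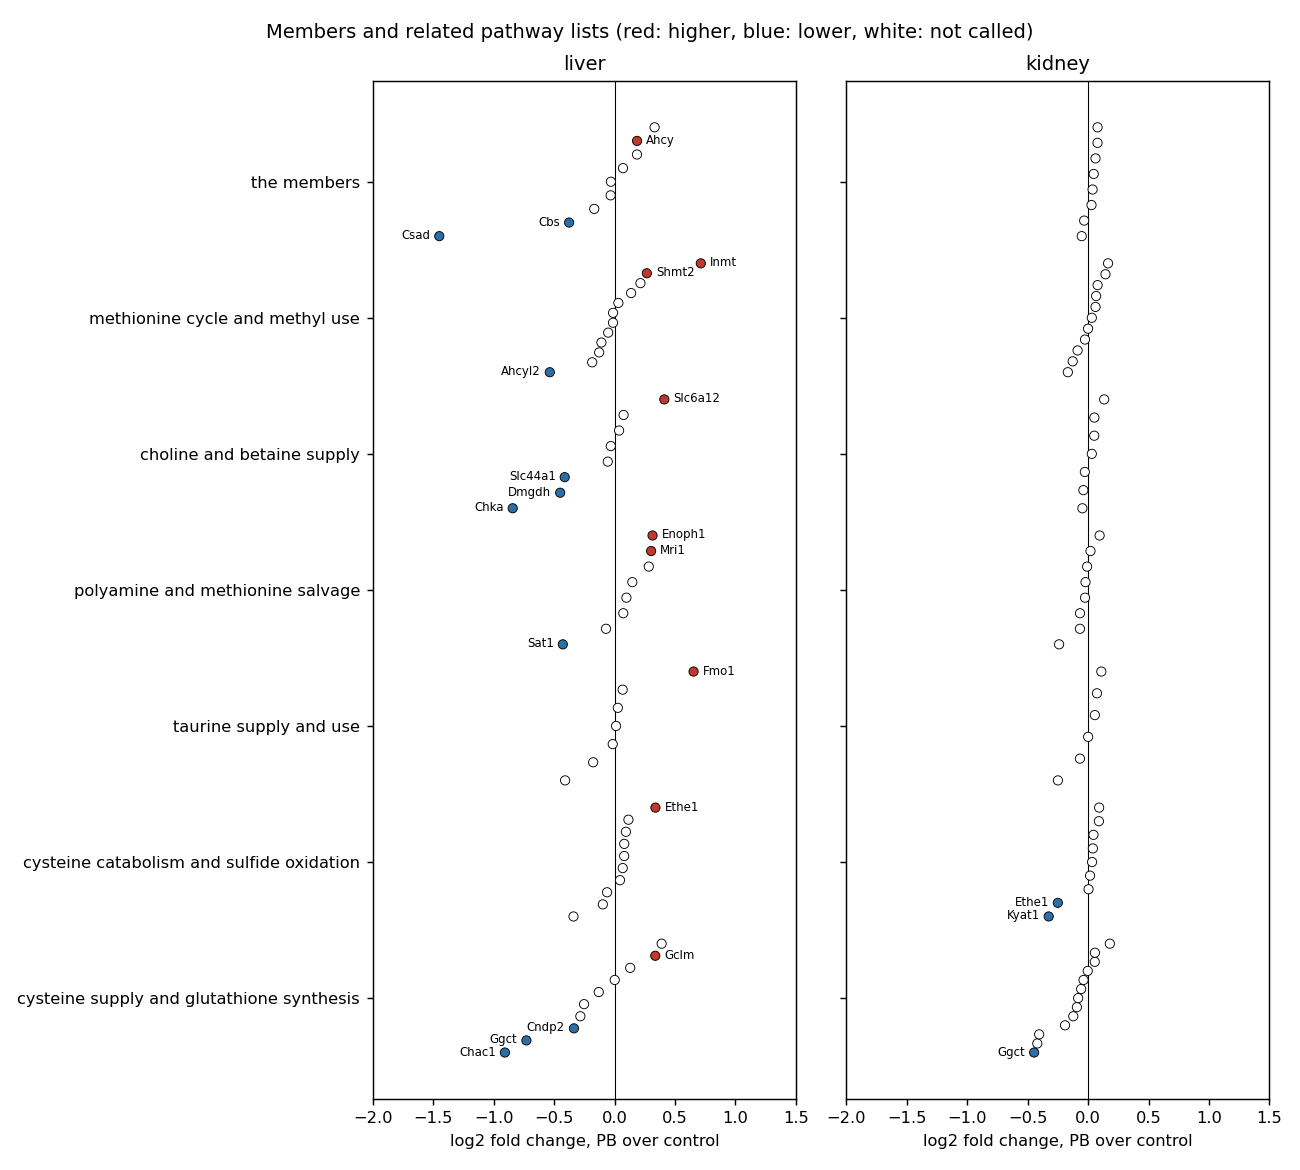
Log2 fold change of PB over control (x axis) in liver (left) and kidney (right) for the members and the 6 pathway lists (rows), 1 point per tested gene, red for called higher, blue for called lower and white for not called by limma at an adjusted p under 0.05. In liver 8 genes of the lists are red and 8 blue, and in kidney 3 are blue.

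Between the tissues of control mice, 31 of 60 list genes were higher in liver and 24 lower. Of all genes 36.7% were higher and 44% lower. For cysteine catabolism 10 of 10 were higher. For cysteine supply and glutathione synthesis 11 of 13 were lower and 1 higher. In PB mice 8 of these 13 were lower, against 45.9% of all genes. The other lists, in control mice, were mixed. Methionine cycle and methyl use had 6 higher and 5 lower of 13, and taurine 3 and 4 of 8. Choline and betaine had 6 and 1 of 8, and salvage 5 and 3 of 8. The PB effect differed between tissues in 10 of 60 list genes, 6 with the higher effect in liver and 4 with the lower, where 7.65% of all genes did (3.56% and 4.09%). Among them were Dmgdh (-0.58, SE 0.09, limma adjusted p = 8.73e-06), Fmo1 (0.54, SE 0.09, adjusted p = 1.14e-04) and Chka (-0.87, SE 0.18, adjusted p = 0.00163).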

How the data were processed

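RNA from liver and kidney of 10 control and 10 PB-treated mice was labelled with the 3′ IVT Express assay and hybridised to Affymetrix Mouse430_2 arrays, 40 in all. The deposited intensity values are the authors' linear MAS5 signals, scaled per array to a trimmed mean of 150, with 1 animal behind each array. GCOS and MAS5 are named in the submitters' processing notes with no version. Samples were grouped by their labels. Symbols came from the platform annotation, updated through the RefSeq table of GRCm38.p6: 34945 probe sets had 1 symbol, 932 several and 9160 none, and 34741 matched the table. Related transcripts can also hybridise to probe sets marked _s_at or _x_at. Among these are the brighter set of Cbs and those of Shmt2, Enoph1 and Kyat1.

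From the deposited intensity values, probe sets with a mean under 50 in every group compared were dropped, signals under 1 were set to 1, and log2 values were fitted with limma 3.58.1 (lmFit, eBayes with a trend, two-sided) in R 4.3.3. Calls had a Benjamini-Hochberg adjusted p under 0.05 over all probe sets tested, and fold changes are on the log2 scale. PB was tested within each tissue, and tissue differences and the interaction over all 40 arrays. The probe set with the highest mean stood for its gene. Correlations over 10 animals used permutation tests with 1e+05 resamples (Python 3.11.15, SciPy 1.17.1). No detection calls were used. Precision is limited by how many arrays there are. Within a tissue the p-values measure the spread between arrays of different animals, which includes the variation of the arrays themselves. The main tests between tissues treat the 40 arrays as independent, although liver and kidney come from the same 20 animals.

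The labels' donor number pairs liver and kidney of an animal. Over 15416 probe sets the deviations of the 2 tissues of an animal from their group means had r = 0.076 at the median, with a range from -0.074 to 0.211, and -0.010 between different animals. The models were tested on simulated data with known changes. The members, the pathway and marker lists and the rule for named genes (all members, of each list up to 3 called genes with the largest change in liver and 2 in kidney or else its brightest gene, and the 3 nearest profiles) were chosen with earlier results of these data known.

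The alternatives were filters at 100 and none, floors of 20 and 50, quantile and median scaling, robust eBayes, the mean over a gene's probe sets, Student's and Welch's tests, the number in the label's description as a covariate, all 40 arrays in 1 fit, the study's thresholds (a ratio of means of 1.5 and p of 0.001), the animal as a block, and each array left out.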

Additional observations from a re-analysis of the deposited data

Results flagged for a closer look

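Among 42 groups of 10 animals and member probe sets, 2 held an animal far from the rest by Dixon's test, where chance gives about 1 in 20. Csad in PB liver of animal 17 was 1080.3 with the next animal at 699.5, and Bhmt in PB kidney of animal 19 was 172.1 with the next at 89.6, where the whole group lay around the filter level. Without animal 17 the Csad difference in liver was -1.58.

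Among 80 groups of the other named genes, 8 held such an animal. They were Dnase2a in PB liver of animal 17 (1569.0), Ethe1 and Inmt in control kidney of animal 4 (1342.3 and 7865.2), Odc1 and Tmem243 in PB kidney of animal 14 (9612.3 and 507.6), Sat1 in control liver of animal 2 (1569.9), Slc44a1 in PB liver of animal 15 (654.5) and Wbp1l in PB kidney of animal 15 (491.7).

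The PB effect differed between liver and kidney, by the interaction test in limma, for 2 members and 10 list genes. On the log2 scale, liver minus kidney, Csad was at -1.49 and Cbs at -0.34. Lower in liver than in kidney were also Chka at -0.87, Dmgdh at -0.58, Slc44a1 at -0.46 and Ahcyl1 at -0.16. Higher were Inmt at 0.84, Ethe1 at 0.59, Fmo1 at 0.54, Kyat1 at 0.39, Gclm at 0.37 and Shmt2 at 0.29. Ahcyl1 was called in neither tissue by itself, and Kyat1 in kidney only.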

How the results depend on the processing

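No result changed its direction with a call under any alternative run. The fall of Csad and Cbs in liver was called under every alternative run for it, except that the study's thresholds left 1 member lower, Csad. Their differences in PB effect between tissues, for Cbs by the brighter probe set, were called under the filters, floors, scalings, robust eBayes, the mean of probe sets and both animal blocks, and without each of the 40 arrays (an omission added after seeing the data, with -1.61 to -1.40 for Csad, -0.38 to -0.30 for Cbs, 0 members higher, 2 lower and 1188 to 1538 probe sets called). The other tests, the description number and the study's thresholds were not run for it. The number of members higher in liver, 1 as reported, was 2, Ahcy and Cth, with a filter at 100, floors of 20 or 50, quantile normalization, the mean of a gene's probe sets, all 40 arrays in 1 fit or the brightest probe sets as a covariate, 0 without a filter, with median centring or at the study's thresholds, and 0 to 2 without single arrays. The members lower were 2 to 3 without single arrays. Probe sets called in liver, 2336 as reported, were 455 at the study's thresholds and 1986 to 2541 without single arrays. In kidney, 627 as reported, they were 335 without a filter, 367 by Welch's test, 200 with all 40 arrays, 97 at the study's thresholds and 393 to 852 without single arrays (393 without control 8, 411 without PB 19), and 0 members were called throughout. By the methods' t-test at their thresholds, 401 probe sets in liver and 72 in kidney passed on log2 signals and 373 and 59 on linear ones, and after Benjamini-Hochberg adjustment 2214 and 450, and 2165 and 419. Between tissues 26004 probe sets in controls and 27191 in PB mice were called without a filter. Of the 72 relations among members in liver, 9 as reported, 14 were called with median centring and 0 relative to the brightest probe sets. Median centring moved the share of higher calls from 47.8% to 36.8% in liver, from 55% to 72.3% in kidney and from 50.4% to 32.3% for the interaction, and moved the median of all probe sets between tissues from -0.08 to -0.16 in controls and from -0.10 to -0.22 in PB mice. The causes were not tested. No paired analysis was possible because control and PB groups share no animals. Between tissues, the replicate block of the animal left every call of a member as it was, with 1287 (fixed) and 1579 (random) probe sets called for the interaction against 1357 without it. Dim probe sets limit Bhmt and Mat1a in kidney.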
